A study of Mus musculus with 39 samples.

Results

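The genes described here are the potassium channel genes of mouse cerebellar granule cells, taken as every protein-coding gene whose mouse symbol starts with Kcn. After the table's gene identifiers were matched to mouse symbols, 98 symbols started with Kcn and 4 non-coding ones, antisense transcripts among them, were dropped. That left 94 members of the 24100 genes in the table. They were grouped by symbol into 40 voltage-gated (Kv) alpha subunits, 15 inward rectifiers (Kcnj), 14 tandem pore-domain (K2P) leak channels (Kcnk), 12 calcium-activated and Slo-family genes (Kcnm, Kcnn, Kcnt and Kcnu) and 13 auxiliary subunits (Kcnab, Kcne, Kcnip and Kcnrg). Kcnk16 had no count in any library, and Kcnd1 and Kcne1l, both on chromosome X, were blank in the 9 Ezh1 libraries.

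Potassium channels let potassium leave the cell, which holds the resting potential near the potassium equilibrium potential and ends each action potential. Kv channels open on depolarisation and shape the spike, inward rectifiers and K2P channels act near rest, and calcium- or sodium-activated channels follow the activity of the cell. Auxiliary subunits change how much of a channel reaches the membrane and how fast it opens and closes. In granule cells, the small excitatory neurons that send parallel fibres to Purkinje cells, the resting leak is known for the TASK channels of the K2P family, the fast transient current for Kv4 channels with KChIP proteins, and fast repolarisation for Kv3 channels.

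Polyadenylated RNA was sequenced in 39 libraries. TRAP, or translating ribosome affinity purification, gave 19 of them: it collects the RNA on ribosomes that carry an L10a protein fused to green fluorescent protein, made under the control of a driver gene. The TRAP and inhibitor experiments used C57Bl/6J mice. Neurod1 TRAP libraries (5 each at postnatal day 7, 12 and 21, written P7, P12 and P21) came from cerebellar lysates of Tg(NeuroD1-Egfp-L10a) mice, whose tag is driven by the Neurod1 gene of differentiating and mature granule cells. Math1 TRAP libraries (4 at P7) came from isolated granule cell progenitors of Tg(Atoh1-Egfp-L10a) mice, whose tag is driven by Atoh1, also called Math1. Each age had 1 input library of total cerebellar RNA. Cultures of granule cells isolated at P6 to P7 gave 2 libraries each after 5 days in vitro (DIV5) with 100 nM UNC1999, an inhibitor of the histone methyltransferases EZH2 and EZH1, or with DMSO, its solvent, and 2 each of freshly isolated cells (DIV0) and of DIV2 cells with DMSO. Granule cell cultures from P7 pups carrying Atoh1-Cre were taken at DIV5 with a conditional knockout (cKO) of Ezh1 (4 libraries, floxed on both alleles) or with wild-type Ezh1 (wt, 5 libraries), so both genotypes carried Cre. Their strain is not given in the sources used here.

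Levels are TMM-scaled CPM, the counts of a gene relative to the scaled total of its library within each fit, log2 fold changes carry their standard error, and a gene was called at an adjusted p under 0.05 in edgeR's quasi-likelihood test with Benjamini-Hochberg adjustment over all genes of the comparison. Nothing in the labels says that replicate libraries came from separate animals or cultures, so the p-values measure the spread between these libraries. Total counts ran from 12.1 M to 38.5 M per library. Granule neuron markers summed to medians of 6166, 10350 and 17760 CPM in Neurod1 TRAP at P7, P12 and P21, and to 3026 CPM in Math1 TRAP, where progenitor markers stood at 3207 CPM. In the fit with the inputs, the 8 Purkinje cell markers summed to medians of 264, 632 and 1027 CPM in Neurod1 TRAP at P7, P12 and P21, against 1832, 2819 and 4431 CPM in the inputs, and none of the 8 was at 0 in any group. Between P21 and P7 all 8 were called higher. Oligodendrocyte lineage markers summed to medians of 283, 525 and 841 CPM in Neurod1 TRAP at P7, P12 and P21, with 6 of 10 higher and 3 lower at P21 than at P7 and none at 0; the part of either list in the member changes was not tested. In bulk RNA such as this, fewer cells of a type and less RNA per cell cannot be told apart.

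The summed level of the potassium channel genes was higher at each later age in Neurod1 TRAP, as it was in the inputs of the whole cerebellum. Without TMM scaling, the members summed to 1470 to 1872 CPM in the 5 Neurod1 TRAP libraries at P7, to 3247 to 3580 CPM at P12 and to 4688 to 5177 CPM at P21, so that the ages did not overlap. The single input libraries summed to 2033 CPM at P7, 4154 CPM at P12 and 5998 CPM at P21, above every Neurod1 TRAP library of the same age. The number of members with a mean of at least 100 CPM was 4 at P7, 10 at P12 and 16 at P21, while the number with at least 1 CPM was 55, 52 and 50. Fewer members thus reached 1 CPM at each later age, while more reached 100 CPM.

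Of the 94 members, 70 passed the filter on low counts in the TRAP libraries. Between P21 and P7, 33 of these were higher at P21, beside 38.9% of all genes tested, and 23 were lower, beside 42.5% of all genes. As shares of the members tested these are 47.1% and 32.9%. The median log2 fold change of the tested members was 0.43, against -0.05 over all genes. The 5 libraries at P21 lay clear of the 5 at P7 for 31 of the 33 higher and 22 of the 23 lower members. The same share over all called genes was not counted, so these counts do not set the members apart. Kcnj11 and Kcnma1 were among those called although their libraries overlapped. When counts were scaled by library size alone, the calls were 32 higher and 24 lower.

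**Figure D1:**
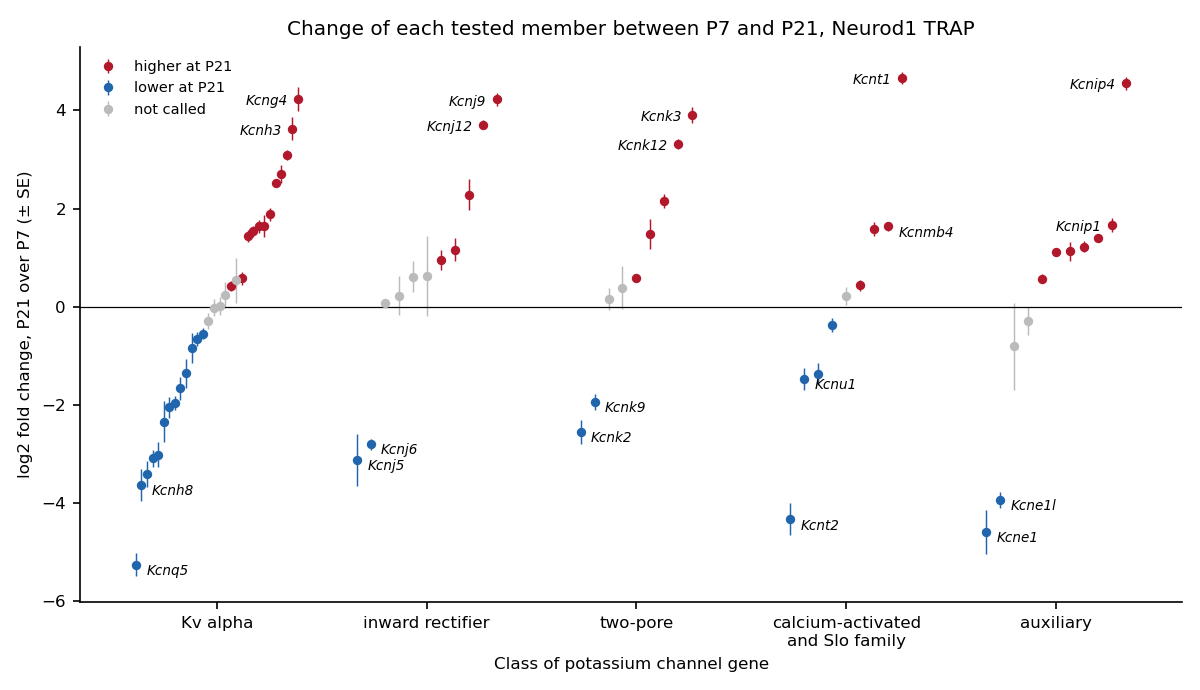
Log2 fold change at P21 over P7 in Neurod1 TRAP for each of the 70 tested members (vertical axis, bars are SE), by class (horizontal axis). Red points are members called higher at P21, blue lower and grey not called. Every class holds calls in both directions, and the range runs from -5.26 for Kcnq5 to 4.65 for Kcnt1.

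Among the 30 Kv alpha subunits tested, 12 were higher and 13 lower at P21. The Kv3 genes, whose channels repolarise fast-spiking neurons, moved both ways, with Kcnc1 and Kcnc4 higher and Kcnc2 lower. Kcnc1 (Kv3.1) stood at 103, 108, 119, 92.1 and 130.5 CPM at P7, 294, 323, 302, 334 and 364 CPM at P12 and 653, 606, 615, 652 and 659 CPM at P21. The libraries of each age lay above those of the age before, and the log2 fold change at P21 over P7 was 2.53 ± 0.082 (SE, adjusted p = 1.76e-17). Kcnc4 (Kv3.4) rose by 1.53 ± 0.11 on the log2 scale, with most of it between P7 (11.5 to 20.03 CPM) and P12 (34.5 to 44.5 CPM) and no call between P21 (43.3 to 51.6 CPM) and P12. Kcnc2 (Kv3.2) was below 1 CPM in every Neurod1 library, with 0.268 to 0.53 CPM at P21 and 0.732 to 0.785 CPM at P7 (log2 fold change -0.84 ± 0.31, adjusted p = 0.0169).

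The axonal Kv1 genes Kcna1 (Kv1.1) and Kcna2 (Kv1.2) also rose. Kcna1 had 57.8 to 88.4 CPM at P7, 194 to 232 CPM at P12 and 250.1 to 297 CPM at P21, a log2 fold change of 1.88 ± 0.13 (SE, adjusted p = 1.31e-11) at P21 over P7. Kcna2 had 9.62 to 20.4 CPM at P7, 42.3 to 55.8 CPM at P12 and 84.1 to 105 CPM at P21, a log2 fold change of 2.71 ± 0.19 (SE, adjusted p = 2.39e-11). Kcnd2 (Kv4.2), which carries A-type current in granule cells, had 125, 125, 142, 109 and 123 CPM at P7, 195, 196, 180.0, 217 and 213 CPM at P12 and 334, 334, 325, 344 and 349 CPM at P21. Its ages did not overlap, and the log2 fold change at P21 over P7 was 1.43 ± 0.12 (SE, adjusted p = 5.77e-10). Its family member Kcnd3 (Kv4.3) went the other way by a small amount, -0.55 ± 0.11 (SE, adjusted p = 0.000114). Kcng4 (Kv6.4), a subunit that forms no channel of its own and joins Kv2 subunits, had 29.9, 24.1, 25.8, 31.9 and 27.6 CPM at P21, against 1.73, 1.24, 2.09, 0.565 and 1.77 CPM at P7, a log2 fold change of 4.23 ± 0.24 (SE, adjusted p = 4.06e-13). Kcng4 and Kcna2 were lower in TRAP than in total cerebellar RNA, as given with the inputs, and their rise ran beside that of the Purkinje markers, whose part in it was not tested.

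The largest fall of any tested member was that of Kcnq5 (Kv7.5), a subunit of the slow M-type current. Kcnq5 stood at 40.8, 52.1, 50.2, 44.7 and 56.9 CPM at P7, 35.1, 37.9, 37.3, 38.2 and 26.0 CPM at P12 and 1.09, 1.74, 0.879, 0.715 and 1.92 CPM at P21. The libraries at P12 all lay below those at P7 and far above those at P21, and 9.28% of the log2 change had been made by P12. The log2 fold change was -4.77 ± 0.24 (SE, adjusted p = 2.53e-13) at P21 over P12 and -0.49 ± 0.18 (SE, adjusted p = 0.0216) at P12 over P7. Kcnq3 (Kv7.3), another M-current subunit, fell to 0.435 to 1.80 CPM at P21, against 4.98 to 6.44 CPM at P7, a log2 fold change of -2.05 ± 0.22 (SE, adjusted p = 1.7e-08).

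Kcnb2 (Kv2.2), a delayed rectifier, declined at both steps and had 1.56, 1.27, 1.41, 1.15 and 1.15 CPM at P21, against 11.3, 10.2, 12.7, 9.75 and 11.6 CPM at P7, a log2 fold change of -3.09 ± 0.17 (SE, adjusted p = 1.4e-13).

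Among 11 inward rectifiers tested, 5 were higher and 2 lower at P21. Kcnj12 (Kir2.2), a strong inward rectifier, stood at 34.9, 37.7, 37.6, 29.6 and 37.7 CPM at P7, 166, 193, 184, 188 and 198 CPM at P12 and 465, 421, 467, 486 and 482 CPM at P21. Its ages were separated by wide gaps, and its log2 fold change at P21 over P7, 3.71 ± 0.085 (SE, adjusted p = 9.23e-20), had the smallest adjusted p of any member in that comparison.

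The G protein-gated rectifiers (GIRK channels), which open when inhibitory receptors release G protein beta-gamma subunits are built from Kcnj3 (GIRK1), Kcnj6 (GIRK2) and Kcnj9 (GIRK3), and their RNAs went 3 ways. Kcnj9 stood at 13.3, 11.5, 12.7, 7.10 and 11.7 CPM at P7, 70.4, 75.9, 70.0, 73.0 and 76.2 CPM at P12 and 191, 195, 206, 231 and 230.3 CPM at P21. Kcnj6 stood at 63.2, 67.6, 75.5, 61.6 and 76.4 CPM at P7, 26.8, 30.1, 28.8, 33.8 and 30.2 CPM at P12 and 10.8, 8.20, 8.19, 11.1 and 10.99 CPM at P21. Kcnj3 stood at 151, 138, 153, 134 and 146 CPM at P7, 158, 146, 138, 164 and 158 CPM at P12 and 155, 135, 139, 164 and 162 CPM at P21. Kcnj9 climbed and Kcnj6 dropped at each step without overlap between ages, and the libraries of all ages overlapped for Kcnj3. The log2 fold change at P21 over P7 was 4.22 ± 0.14 (SE, adjusted p = 1.8e-17) for Kcnj9 and -2.80 ± 0.11 (SE, adjusted p = 5.51e-16) for Kcnj6. For Kcnj3 it was 0.07 ± 0.10 (SE, adjusted p = 0.542), not called, and -0.11 when counts were scaled by library size alone. Per kilobase of exon, the mean level at P7 was 27.7 CPM for Kcnj3, 10.5 CPM for Kcnj6 and 2.90 CPM for Kcnj9. At P21 it was 54.2 CPM per kilobase for Kcnj9, 29.0 for Kcnj3 and 1.51 for Kcnj6. Kcnj9 thus went from the lowest of these genes to the highest, and Kcnj6 became the lowest.

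Because these family members moved in different directions, their promoter sequences are shown, each from 250 bases before to 50 after the RefSeq start site, on the strand of the gene, in GRCm38.p6. Capitals mark each CG dinucleotide, the dinucleotide at which mammalian DNA is methylated and which is dense in CpG islands. The Kcnj9 window lies at chr1:172329273-172329572 and the Kcnj6 window at chr16:94997647-94997946, both on the minus strand and at the outer end of the gene. The Kcnj3 window lies at chr2:55435720-55436019 on the plus strand. The Kcnj3 gene spans chr2:55411798-55598145, so its window is at a start site inside the gene.
Kcnj9: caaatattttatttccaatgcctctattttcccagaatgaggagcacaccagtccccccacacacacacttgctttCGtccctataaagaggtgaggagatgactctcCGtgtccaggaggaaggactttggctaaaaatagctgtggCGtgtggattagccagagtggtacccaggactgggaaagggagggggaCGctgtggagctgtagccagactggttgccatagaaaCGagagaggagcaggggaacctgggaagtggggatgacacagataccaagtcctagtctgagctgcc
Kcnj3: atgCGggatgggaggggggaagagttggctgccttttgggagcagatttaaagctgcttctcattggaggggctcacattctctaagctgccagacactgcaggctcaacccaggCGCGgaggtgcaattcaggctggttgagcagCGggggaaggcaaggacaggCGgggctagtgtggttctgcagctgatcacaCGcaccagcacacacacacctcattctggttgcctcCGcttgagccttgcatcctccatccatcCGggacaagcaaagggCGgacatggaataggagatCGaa
Kcnj6: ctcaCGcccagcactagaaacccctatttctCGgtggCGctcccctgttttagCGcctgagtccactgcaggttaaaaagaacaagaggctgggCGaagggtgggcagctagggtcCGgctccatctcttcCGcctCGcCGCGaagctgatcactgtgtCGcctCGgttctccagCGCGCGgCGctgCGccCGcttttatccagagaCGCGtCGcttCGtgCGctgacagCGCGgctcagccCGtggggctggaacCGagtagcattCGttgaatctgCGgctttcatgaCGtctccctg
The window of Kcnj6, which fell, holds 30 CG dinucleotides, a ratio of observed to expected CpG of 1.04. The window of Kcnj3 holds 10, a ratio of 0.41, and 1 CAGCTG, and that of Kcnj9, which rose, holds 5, a ratio of 0.25.

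Over all called members the medians lay closer together. A promoter window was listed for 69 of the 94 members, among them 23 of the 33 that were higher and 17 of the 23 that were lower at P21. The median CpG ratio was 0.53 in the higher and 0.48 in the lower members, against 0.39 over 27025 genes, and a ratio of at least 0.6 was found in 34.8% of the higher members, 41.2% of the lower members and 36.5% of all genes. The E-box sequences CAGCTG and CAGATG, the letters that basic helix-loop-helix factors such as Atoh1 and Neurod1 are known to prefer, were searched on both strands, as was TTGGCA, a core motif of NFI factors; none of these motifs contains another. At least 1 of the E-box sequences was present in 39.1% of the higher members, 29.4% of the lower members, 42.0% of all members with a window and 30.4% of all genes. TTGGCA was present in 13.0% of the higher members, 11.8% of the lower members and 14.4% of all genes. A match in such a window is a description and not a binding site.

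The other inward rectifiers called were Kcnj10, Kcnj16, Kcnj11 and Kcnj5. Kcnj10 (Kir4.1) and Kcnj16 (Kir5.1), which form the main potassium channel of astrocytes and Bergmann glia, stood at 14.9 to 17.6 and 2.18 to 3.05 CPM at P21, against 4.68 to 11.3 and 0.288 to 0.942 CPM at P7. Their log2 fold changes were 1.16 ± 0.24 (SE, adjusted p = 0.000138) and 2.29 ± 0.32 (SE, adjusted p = 9.13e-07). The 10 astrocyte and Bergmann glia markers summed to a median of 324 CPM at P21 and 483 CPM at P7. Singly they went both ways, with 4 called higher, 3 lower and 3 not called at P21 over P7. Their part in the rise of Kcnj10 and Kcnj16 was not tested. Kcnj11 (Kir6.2), the pore of the ATP-sensitive channel, had 29.2 to 62.6 CPM at P21 and 19.1 to 29.3 CPM at P7 (log2 fold change 0.95 ± 0.20, adjusted p = 0.000248). Kcnj5 (GIRK4) was below 1 CPM in every library and lower at P21 (log2 fold change -3.13 ± 0.54, adjusted p = 1.48e-05). Kcnj8 (Kir6.1), a marker of pericytes, was below 1 CPM in every Neurod1 library and was not called (log2 fold change 0.22 ± 0.40, adjusted p = 0.61).

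Of 9 K2P channels tested, 5 were higher and 2 lower at P21. The TASK genes, whose channels carry the standing potassium current of granule cells, moved apart. Kcnk3 (TASK-1) stood at 26.2, 28.7, 27.5, 16.5 and 27.6 CPM at P7, 174, 190.2, 170.0, 177 and 195 CPM at P12 and 336, 391, 398, 382 and 386 CPM at P21, and its ages did not overlap. Kcnk9 (TASK-3) stood at 8.94, 8.73, 11.02, 6.604 and 9.46 CPM at P7, 6.80, 5.81, 6.81, 7.31 and 7.67 CPM at P12 and 2.92, 1.31, 2.20, 2.30 and 2.95 CPM at P21. Its P7 and P12 libraries overlapped, and all P21 libraries lay below both. The log2 fold change at P21 over P7 was 3.91 ± 0.17 (SE, adjusted p = 5.06e-15) for Kcnk3 and -1.94 ± 0.17 (SE, adjusted p = 3.73e-10) for Kcnk9.

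Kcnk1 (TWIK-1) was the most abundant member per kilobase of exon at P7, P12 and P21. It stood at 100.4, 137, 129.9, 107 and 138 CPM at P7, 345, 394, 359, 371 and 403 CPM at P12 and 506, 477, 504, 617 and 610.4 CPM at P21, a log2 fold change of 2.15 ± 0.14 (SE, adjusted p = 2.66e-12) at P21 over P7 with no overlap between ages. Kcnk12 (THIK-2), a K2P channel that passes little current when expressed alone, had 118, 109.8, 119, 123 and 128 CPM at P21, against 13.2, 13.0, 13.3, 8.44 and 12.01 CPM at P7, a log2 fold change of 3.32 ± 0.10 (SE, adjusted p = 8.14e-18). Kcnk2 (TREK-1), a channel gated by stretch and lipids, was not called between P12 and P7 and dropped afterwards. It stood at 79.5, 93.6, 94.3, 80.6 and 92.1 CPM at P7, 97.1, 99.8, 103, 112 and 108 CPM at P12 and 9.99, 22.5, 20.2, 11.7 and 10.6 CPM at P21. The log2 fold change was 0.24 ± 0.22 (SE, adjusted p = 0.343) at P12 over P7 and -2.79 ± 0.24 (SE, adjusted p = 6.03e-09) at P21 over P12.

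**Figure D2:**
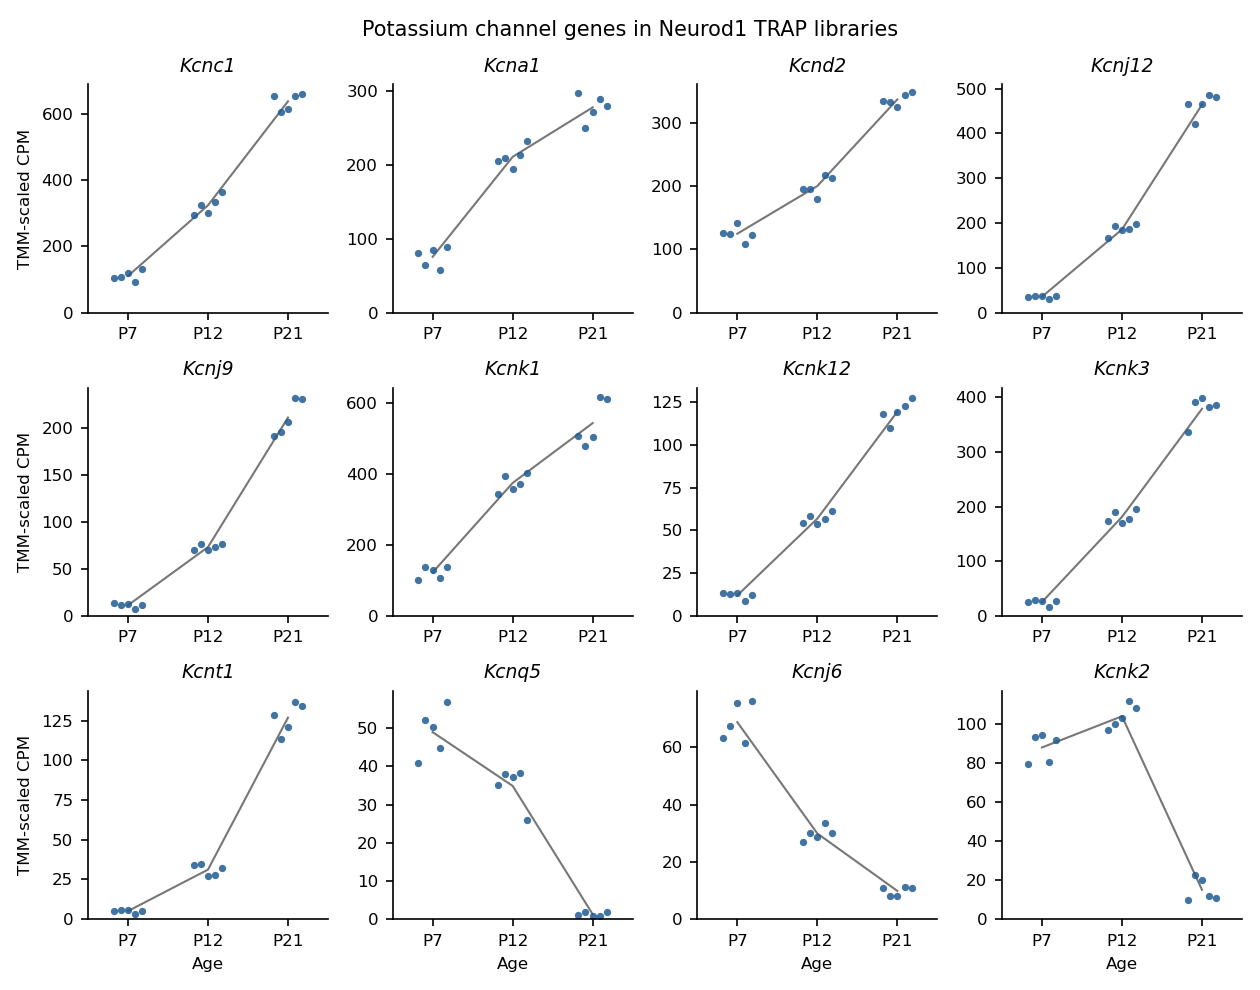
TMM-scaled CPM (vertical axes, from 0, each with its own range) of 12 members in each of the 15 Neurod1 TRAP libraries at P7, P12 and P21 (horizontal axes). Points are libraries and lines join the means. Kcnc1, Kcna1, Kcnd2, Kcnj12, Kcnj9, Kcnk1, Kcnk12, Kcnk3 and Kcnt1 climb at both steps, while Kcnq5 and Kcnk2 drop mainly after P12 and Kcnj6 drops at both.

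Among 9 calcium-activated and Slo-family genes tested, 4 were higher and 4 lower. Kcnt1 (Slack), a sodium-activated channel, had the largest rise of any tested member. It stood at 5.14, 5.86, 5.56, 3.46 and 5.18 CPM at P7, 34.3, 34.5, 26.8, 28.0 and 32.2 CPM at P12 and 128, 114, 121, 137 and 134 CPM at P21, without overlap between ages, a log2 fold change of 4.65 ± 0.13 (SE, adjusted p = 9.08e-19) at P21 over P7. Its relative Kcnt2 (Slick) was near the detection limit, with 0 to 0.134 CPM at P21 and 1.02 to 1.81 CPM at P7, and was lower at P21 (log2 fold change -4.33 ± 0.32, adjusted p = 3.76e-11). Kcnma1, the pore of the BK channel opened by calcium and voltage, was low throughout, with 4.59 to 8.02 CPM at P21 and 6.82 to 9.88 CPM at P7. Its small decline, -0.37 ± 0.14 (SE, adjusted p = 0.0198), was not called in 6 of the alternatives tried, DESeq2 among them (adjusted p = 0.058).

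The neuronal BK auxiliary subunit Kcnmb4 averaged 125.0 CPM per kilobase of exon at P21, against 0.504 CPM per kilobase for Kcnma1, the pore it is known to join. The exon lengths used were 1367 bases for Kcnmb4 and 12916 bases for Kcnma1, so the gap is wider per kilobase than in CPM. Kcnmb4 had 146, 205, 195, 151 and 157 CPM at P21, against 52.8, 61.6, 56.4, 51.8 and 52.5 CPM at P7, a log2 fold change of 1.64 ± 0.092 (SE, adjusted p = 2.27e-13). Kcnn2 (SK2), a small-conductance channel opened by calcium, had 22.7, 23.0, 21.7, 23.5 and 22.0 CPM at P21, against 6.58, 7.17, 7.72, 7.38 and 8.79 CPM at P7, a log2 fold change of 1.59 ± 0.14 (SE, adjusted p = 5.96e-10). Kcnn3 (SK3) was near 1 CPM at P7 and fell to 0.301 to 0.505 CPM at P21 (log2 fold change -1.37 ± 0.22, adjusted p = 8.02e-06). Kcnu1 (Slo3), known from sperm, was at 0.234 to 0.559 CPM at P21 and 0.903 to 1.52 CPM at P7 (log2 fold change -1.47 ± 0.23, adjusted p = 4.04e-06).

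Among 11 auxiliary subunits tested, 7 were higher and 2 lower at P21. The KChIP genes, whose proteins bind Kv4 channels, each rose, by different amounts and at different times. Kcnip4 stood at 4.61, 4.83, 5.23, 5.54 and 5.34 CPM at P7, 26.6, 23.3, 28.0, 24.9 and 22.6 CPM at P12 and 151, 91.1, 96.2, 123 and 138 CPM at P21, a log2 fold change of 4.55 ± 0.13 (SE, adjusted p = 3.19e-18) at P21 over P7, shared almost equally between the steps. Kcnip3 stood at 73.5, 81.9, 83.5, 73.0 and 81.7 CPM at P7, 208, 213, 205, 199 and 207 CPM at P12 and 198, 207, 202, 211 and 215 CPM at P21. The rise of Kcnip3 was complete by P12, with a log2 fold change of 1.39 ± 0.075 (SE, adjusted p = 7.48e-13) at P12 over P7 and 0.00 ± 0.073 (SE, adjusted p = 0.984) at P21 over P12. Kcnip1 had 34.9 to 57.6 CPM at P21, against 11.9 to 17.5 CPM at P7, a log2 fold change of 1.66 ± 0.14 (SE, adjusted p = 2.31e-10).

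Kcnab2 (Kv beta 2), which travels with Kv1 channels to the axon, had 118, 110.2, 106, 112 and 114 CPM at P21, against 55.5, 52.8, 50.04, 51.4 and 49.2 CPM at P7, a log2 fold change of 1.11 ± 0.062 (SE, adjusted p = 2.29e-13). The members called lower were small single-pass subunits of the Kcne family. Kcne1l, listed elsewhere as Kcne5, had 0.933, 1.84, 1.60, 1.46 and 1.44 CPM at P21, against 18.0, 22.8, 22.5, 25.0 and 24.3 CPM at P7, a log2 fold change of -3.94 ± 0.16 (SE, adjusted p = 6.38e-16). Kcne1 (minK) had 0 to 0.0884 CPM at P21 and 0.864 to 1.24 CPM at P7 (log2 fold change -4.60 ± 0.45, adjusted p = 3.16e-09).

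Members changed in both steps between P7 and P21. In the first step, P12 over P7, 34 of 70 members were called higher, beside 31.5% of all genes, and 17 lower, beside 36.7%. In the second, P21 over P12, 26 were higher, beside 32.4% of all genes, and 20 lower, beside 32.7%. The 33 members that were higher at P21 than at P7 had made a median of 65.0% of their log2 change by P12, and 26 of them, 78.8%, more than 50%; over all genes higher at P21 the median was 52.5% and 53.8% had made more than 50%. The 23 that were lower had made a median of 32.6% by P12, and 5 of them, 21.7%, more than 50%; over all genes lower at P21 the median was 52.0% and 52.7% had made more than 50%. The values of single members ranged widely in both directions, and the difference between rising and falling members was not tested. Calls in the same direction in both steps were made for 22 of the 33 rising and 13 of the 23 falling members, 66.7% and 56.5%, against 52.7% and 53.8% of all genes that rose or fell. Kcna4 and Kcna6, Kv1 genes, were the members called higher in the first step and lower in the second; Kcna6 stood at 17.8 to 27.4 CPM at P7, 24.3 to 34.5 CPM at P12 and 11.8 to 15.9 CPM at P21.

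Per kilobase of exon, the order of members changed with age. At P7 Kcnk1 led with 54.8 CPM per kilobase, followed by Kcnmb4 with 40.2, Kcnj3 with 27.7, Kcnip3 with 24.4 and Kcnd2 with 24.2. At P12 Kcnk1 had 167.5 CPM per kilobase, ahead of Kcnmb4 with 71.0 and Kcnj12 with 67.5. At P21 Kcnk1 had 242.8 CPM per kilobase, followed by Kcnj12 with 168.8, while Kcnmb4 had 125.0 and Kcnk3 had 99.4. Kcnj12 and Kcnk3 were among the leading 5 members at P21 and not at P7.

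Genes that handle potassium without a Kcn symbol were mostly higher at P21. There were 27 such partners (Kv4 and BK channel partners, sulfonylurea receptors, HCN channels, Kv1 clustering proteins and sodium pump subunits). Of the 26 tested, 18 were higher at P21 than at P7, beside 38.9% of all genes, and 4 were lower, beside 42.5%. Dlg1, a scaffold of Kv1 channels, had a log2 fold change of 2.03 ± 0.086 (SE, adjusted p = 1.83e-15). Lrrc55, a BK auxiliary subunit, had a log2 fold change of -4.84 ± 0.22 (SE, adjusted p = 5.5e-15), and Hcn4, a pacemaker channel, of -2.16 ± 0.22 (SE, adjusted p = 6.47e-09).

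Set against isolated progenitors at the same age, the differentiating cells carried more of most channels. In Neurod1 TRAP over Math1 TRAP at P7, 48 of 70 tested members were higher, beside 36.5% of all genes, and 10 were lower, beside 35.8%. The median log2 fold change of the members was 1.07, against 0.01 over all genes. The groups did not overlap for 44 of the 48 higher and 8 of the 10 lower members, and the same share over all called genes was not counted. By class, 19 Kv genes were higher and 6 lower of 30, 6 inward rectifiers higher and 2 lower of 11, 6 K2P genes higher and 1 lower of 9, 8 calcium-activated genes higher and 1 lower of 9, and 9 auxiliary genes higher and 0 lower of 11. Among the partners 16 were higher and 6 lower of 26. The driver line and the starting material, lysate or isolated cells, differ together in this comparison and cannot be told apart from the stage of the cells. Math1 libraries 1 and 2 stood apart from 3 and 4 for many members; without 1 and 2 the calls were 41 higher and 12 lower, and without 3 and 4 they were 50 and 9. The summed member level was 1470 to 1872 CPM in the Neurod1 libraries and 807 to 1135 CPM in the Math1 libraries, and Purkinje markers summed to medians of 262 CPM in Neurod1 and 37.1 CPM in Math1 libraries.

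Kcnc4 (Kv3.4) was nearly absent from progenitors. It stood at 20.03, 16.6, 15.9, 11.5 and 16.6 CPM in the Neurod1 libraries, against 0.305, 0.332, 0.598 and 0.237 CPM in the Math1 libraries, a log2 fold change of 5.46 ± 0.20 (SE, adjusted p = 3.77e-15). Kcnip1 stood at 15.4, 11.9, 15.2, 17.5 and 16.1 CPM in Neurod1 libraries, against 0.496, 0.532, 0.957 and 0.394 CPM in Math1 libraries (log2 fold change 4.69 ± 0.23, adjusted p = 2.12e-13). Kcnk3 (TASK-1) stood at 26.2, 28.7, 27.5, 16.5 and 27.6 CPM in Neurod1 libraries, against 2.78, 0.731, 1.08 and 0.789 CPM in Math1 libraries (log2 fold change 4.15 ± 0.24, adjusted p = 4.4e-12). For each of these genes every Neurod1 library was several times above every Math1 library. Kcnk12 (THIK-2) stood at 8.44 to 13.3 CPM in the Neurod1 libraries, against 1.10 to 1.86 CPM in the Math1 libraries (log2 fold change 3.04 ± 0.15, adjusted p = 1.71e-13). The Kv1 and Kv4 genes Kcna1 and Kcnd2 had 57.8 to 88.4 and 109 to 142 CPM in Neurod1 libraries, against 13.6 to 23.3 and 25.1 to 53.1 CPM in Math1 libraries, with log2 fold changes of 2.09 ± 0.15 (SE, adjusted p = 8.83e-11) and 1.70 ± 0.14 (SE, adjusted p = 6.49e-10).

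The Kv3 gene Kcnc1, abundant at P21, was already present in progenitors. Kcnc1 stood at 92.1 to 130.5 CPM in the Neurod1 libraries and 70.7 to 80.2 CPM in the Math1 libraries (log2 fold change 0.57 ± 0.084, adjusted p = 3.66e-06). Among the GIRK genes, Kcnj9 stood at 13.3, 11.5, 12.7, 7.10 and 11.7 CPM in the Neurod1 libraries, against 1.94, 1.16, 2.45 and 1.73 CPM in the Math1 libraries (log2 fold change 2.67 ± 0.19, adjusted p = 4.29e-11). Kcnj3 was higher by 0.92 ± 0.11 (SE, adjusted p = 1.52e-07) and Kcnj6 by 0.40 ± 0.11 (SE, adjusted p = 0.00249); the call of Kcnj6 was lost without Math1 libraries 1 and 2 (0.23, adjusted p = 0.11).

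Fewer members were higher in the progenitors. Kcnh5 (EAG2), a Kv channel known from cell cycle control in medulloblastoma, stood at 0.708, 0.319, 0.439, 0.494 and 0.628 CPM in the Neurod1 libraries, against 4.42, 2.73, 3.89 and 4.18 CPM in the Math1 libraries, a log2 fold change of -2.84 ± 0.23 (SE, adjusted p = 5.1e-10). Kcnn3 (SK3) stood at 0.813, 1.31, 1.13, 0.848 and 0.942 CPM in Neurod1 libraries, against 4.35, 3.26, 5.08 and 3.23 CPM in Math1 libraries (log2 fold change -1.98 ± 0.20, adjusted p = 9.49e-09). For both, no Neurod1 library reached the lowest Math1 library. Kcnk13 (THIK-1), best known from microglia, was also lower (log2 fold change -1.01 ± 0.23, adjusted p = 0.000476). Kcnj10, the glial Kir4.1, was at 5.45, 4.68, 7.65, 7.80 and 11.3 CPM in Neurod1 libraries and 7.24, 6.38, 15.9 and 18.1 CPM in Math1 libraries (log2 fold change -0.66 ± 0.26, adjusted p = 0.0284), but without Math1 libraries 3 and 4 it was 0.11 (adjusted p = 0.69).

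Against the RNA of the whole cerebellum, more members were depleted from the pull-down than enriched in it. With age in the fit and 1 input at each age, 16 of 74 tested members were higher in TRAP than in input, beside 36.6% of all genes, and 41 were lower, beside 41.2%. By class, 3 Kv genes were higher and 19 lower of 32, 4 inward rectifiers higher and 6 lower of 11, 4 K2P genes higher and 4 lower of 9, 3 calcium-activated genes higher and 5 lower of 10, and 2 auxiliary genes higher and 7 lower of 12. Among the partners 5 were higher and 15 lower of 26. Scaling by library size alone moved the median of all genes to -0.46 on the log2 scale and the share of called genes that were higher to 25.6%, against 47.1% with TMM, and left 9 members higher and 51 lower.

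The enriched members with the smallest adjusted p were Kcnj12, Kcnd2 and Kcnk12, each of which also rose with age. Kcnj12 stood at 35.3, 38.6, 38.7, 30.0 and 38.7 CPM in TRAP at P7 against 17.4 CPM in input, at 174, 205, 192, 195 and 208 CPM in TRAP at P12 against 84.9 CPM, and at 484, 438, 487, 507 and 499.6 CPM in TRAP at P21 against 176 CPM. All TRAP libraries lay above the input of their age, and the log2 fold change was 1.24 ± 0.089 (SE, adjusted p = 4.56e-10). Kcnk12 (log2 fold change 1.30 ± 0.11, adjusted p = 3.3e-09), Kcnk1 (log2 fold change 1.18 ± 0.11, adjusted p = 1.83e-08), Kcnk3 (log2 fold change 1.09 ± 0.14, adjusted p = 1.14e-06), Kcnmb4 (log2 fold change 1.01 ± 0.12, adjusted p = 2.55e-07) and Kcnd2 (log2 fold change 0.89 ± 0.071, adjusted p = 1.95e-09) were also higher. Kcnj9 was higher by 0.33 ± 0.12 (SE, adjusted p = 0.0192), but stood at -0.065 with library size scaling. Kcnc1 and Kcna1 were not called, with log2 fold changes of 0.15 ± 0.088 and -0.20 ± 0.10.

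Among depleted members Kcnn3 had the lowest log2 fold change of those named. It stood at 0.821 to 1.35 CPM in TRAP at P7 against 9.97 CPM in input, and at 0.314 to 0.526 CPM in TRAP at P21 against 5.31 CPM, a log2 fold change of -3.24 ± 0.15 (SE, adjusted p = 2.46e-12). The glial Kcnj10 stood at 15.5 to 18.4 CPM in TRAP at P21 against 116 CPM in input (log2 fold change -2.67 ± 0.14, adjusted p = 7.39e-12), and Kcnj16 had a log2 fold change of -2.55 ± 0.17 (SE, adjusted p = 2.02e-10). Astrocyte and Bergmann glia markers summed to medians of 338 CPM in TRAP and 1739 CPM in input at P21. Kcnma1, whose BK channel is abundant in Purkinje cells, stood at 4.77 to 8.36 CPM in TRAP at P21 against 52.0 CPM in input (log2 fold change -2.29 ± 0.17, adjusted p = 8.77e-10).

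Kcna2 and Kcng4 rose with age in TRAP and were still far below the input. Kcna2 stood at 9.86 to 20.9 CPM in TRAP at P7 against 73.9 CPM in input, at 44.3 to 58.6 CPM at P12 against 203 CPM, and at 87.8 to 109.8 CPM at P21 against 308 CPM (log2 fold change -2.01 ± 0.13, adjusted p = 1.78e-10). Kcng4 stood at 0.574 to 2.15 CPM in TRAP at P7 against 6.01 CPM, at 11.1 to 15.03 CPM at P12 against 43.0 CPM, and at 25.1 to 33.2 CPM at P21 against 108 CPM (log2 fold change -1.88 ± 0.15, adjusted p = 1.17e-09). Purkinje markers, at medians of 1027 CPM in TRAP and 4431 CPM in input at P21, were lower in TRAP as well. Kcnk9 was below input at P12 and P21, with 1.36 to 3.06 CPM in TRAP at P21 against 14.4 CPM (log2 fold change -1.65 ± 0.26, adjusted p = 9.39e-06).

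**Figure D3:**
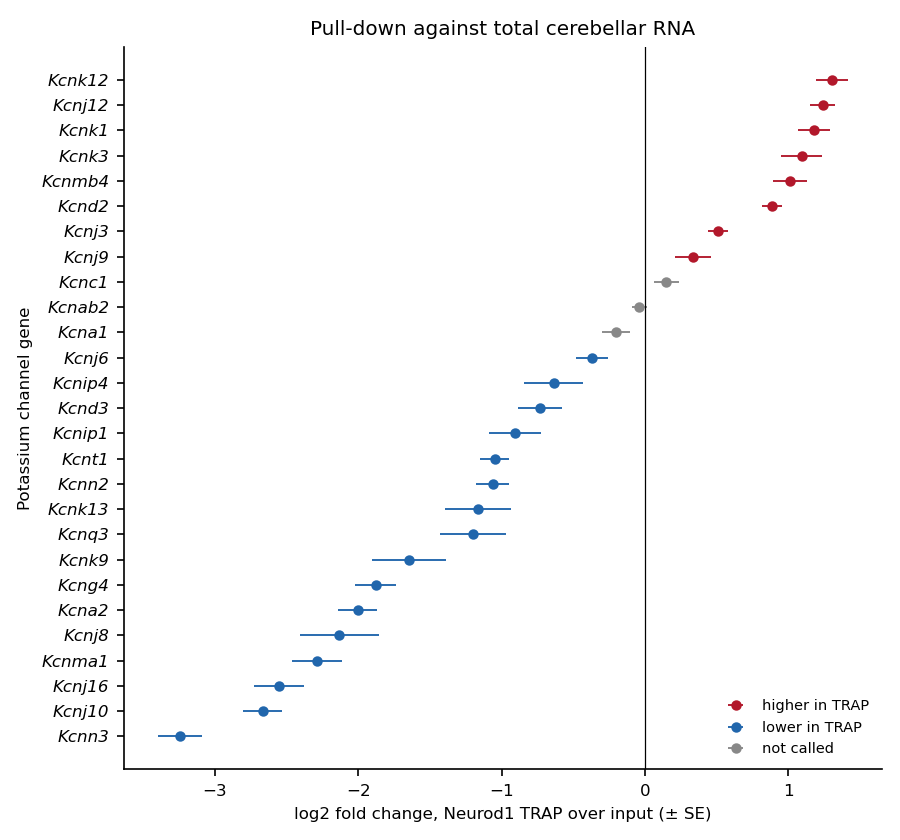
Log2 fold change in Neurod1 TRAP over input (horizontal axis, bars are SE) of 27 named members (vertical axis), from a fit with age. Red points are members called higher in TRAP, blue lower and grey not called. Kcnk12, Kcnj12, Kcnk1 and Kcnk3 are at the top, Kcnc1, Kcna1 and Kcnab2 near 0, and Kcnn3 and the glial Kcnj10 and Kcnj16 at the bottom.

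In culture, more members were higher than lower after 2 days. At DIV2 over DIV0, 37 of 77 tested members were higher, beside 36.4% of all genes, and 20 lower, beside 35.0%. At DIV5 over DIV0, 39 were higher, beside 40.2% of all genes, and 22 lower, beside 38.2%. At DIV5 over DIV2, 29 were higher, beside 31.1% of all genes, and 29 lower, beside 35.7%. The 2 DIV0 libraries differed by a chi-square per degree of freedom of 1.38 over genes, near what counting noise alone gives. The same value was 6.24 at DIV2 and 4.19 at DIV5 with DMSO. The labels do not say whether the DIV0 libraries came from separate preparations. Without TMM scaling, the members summed to 1649 and 1685 CPM at DIV0, 3658 and 3724 CPM at DIV2, and 2508 and 2660 CPM at DIV5, so that the summed level was highest at DIV2. Granule neuron markers summed to medians of 3369, 6221 and 3906 CPM at DIV0, DIV2 and DIV5, astrocyte markers to 840, 1117 and 2574 CPM, microglia markers to 106, 115 and 770 CPM and vascular and meningeal markers to 618, 3074 and 8408 CPM. The 9 granule neuron markers did not move as their sum did. At DIV5, 5 were higher and 4 lower than at DIV2, and 7 were higher and 2 lower than at DIV0. Between DIV5 and DIV2, 10 of 10 astrocyte, 10 of 10 microglia and 7 of 10 vascular and meningeal markers were higher and 0 lower, and their part in the decline of the members after DIV2 was not tested. The vascular and meningeal sum lay mostly in the collagen gene Col1a1, with means of 115 CPM at DIV0, 2893 CPM at DIV2 and 7692 CPM at DIV5. Of the 10 markers, 2 were higher and 8 lower at DIV2 than at DIV0, and 4 higher and 6 lower at DIV5 than at DIV0. These 10 include the member Kcnj8 and the partner Abcc9, so the list is not separate from the potassium channel genes.

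Kcnd2 (Kv4.2) and Kcnk2 (TREK-1) had the smallest adjusted p at DIV2. Kcnd2 stood at 52.8 and 51.4 CPM at DIV0, 413 and 411 CPM at DIV2 and 240.0 and 241 CPM at DIV5. Kcnk2 stood at 31.7 and 31.9 CPM at DIV0, 278 and 275 CPM at DIV2 and 145 and 137 CPM at DIV5. Both peaked at DIV2 and stayed above DIV0, with log2 fold changes at DIV2 over DIV0 of 2.98 ± 0.062 (SE, adjusted p = 1.9e-14) for Kcnd2 and 3.12 ± 0.058 (SE, adjusted p = 6.96e-15) for Kcnk2. Kcnq5, an M-current subunit, also peaked, at 42.7 and 43.7 CPM at DIV0, 159 and 160.0 CPM at DIV2 and 48.9 and 53.2 CPM at DIV5. Its log2 fold change at DIV5 over DIV2 was -1.64 ± 0.059 (SE, adjusted p = 2.13e-11).

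Other members rose and held their level. Kcnt1 stood at 3.38 and 3.91 CPM at DIV0, 97.7 and 68.8 CPM at DIV2 and 95.2 and 118 CPM at DIV5, a log2 fold change of 4.85 ± 0.27 (SE, adjusted p = 1.23e-05) at DIV5 over DIV0. Kcnk3 stood at 1.56 and 1.26 CPM at DIV0, 19.7 and 23.5 CPM at DIV2 and 23.8 and 25.6 CPM at DIV5 (log2 fold change 4.15 ± 0.16, adjusted p = 8.6e-12). Kcnj9 stood at 1.75 and 1.66 CPM at DIV0, 17.7 and 17.6 CPM at DIV2 and 17.4 and 20.8 CPM at DIV5 (log2 fold change 3.495 ± 0.16, adjusted p = 3.72e-11). For these 3 genes DIV2 and DIV5 lay far above DIV0, and none was called between DIV5 and DIV2. Kcnc4 kept climbing, with 0.649 and 0.719 CPM at DIV0, 2.91 and 3.17 CPM at DIV2 and 10.2 and 11.03 CPM at DIV5, and was called higher at both steps.

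Falling members included Kcnj6 and Kcnb2. Kcnj6 (GIRK2) stood at 96.8 and 100.3 CPM at DIV0, 85.7 and 91.8 CPM at DIV2 and 34.1 and 29.2 CPM at DIV5 (log2 fold change -1.65 ± 0.076, adjusted p = 5.67e-11 at DIV5 over DIV0). Kcnb2 stood at 37.3 and 36.5 CPM at DIV0, 25.2 and 28.0 CPM at DIV2 and 6.85 and 6.66 CPM at DIV5 (log2 fold change -2.45 ± 0.11, adjusted p = 2.95e-11). Kcnj6 was not called at DIV2 over DIV0 and Kcnb2 fell at both steps. Kcne1l (-3.09), Kcne4 (-3.79) and Kcnn2 (-2.44) had the smallest adjusted p among the members lower at DIV2 than at DIV0, given here as log2 fold changes, and each was called higher at DIV5 than at DIV2. Kcnj10, the astrocyte channel, stood at 19.0 and 18.0 CPM at DIV0, 30.1 and 31.2 CPM at DIV2 and 93.9 and 88.5 CPM at DIV5, beside the rise of the astrocyte markers.

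**Figure D4:**
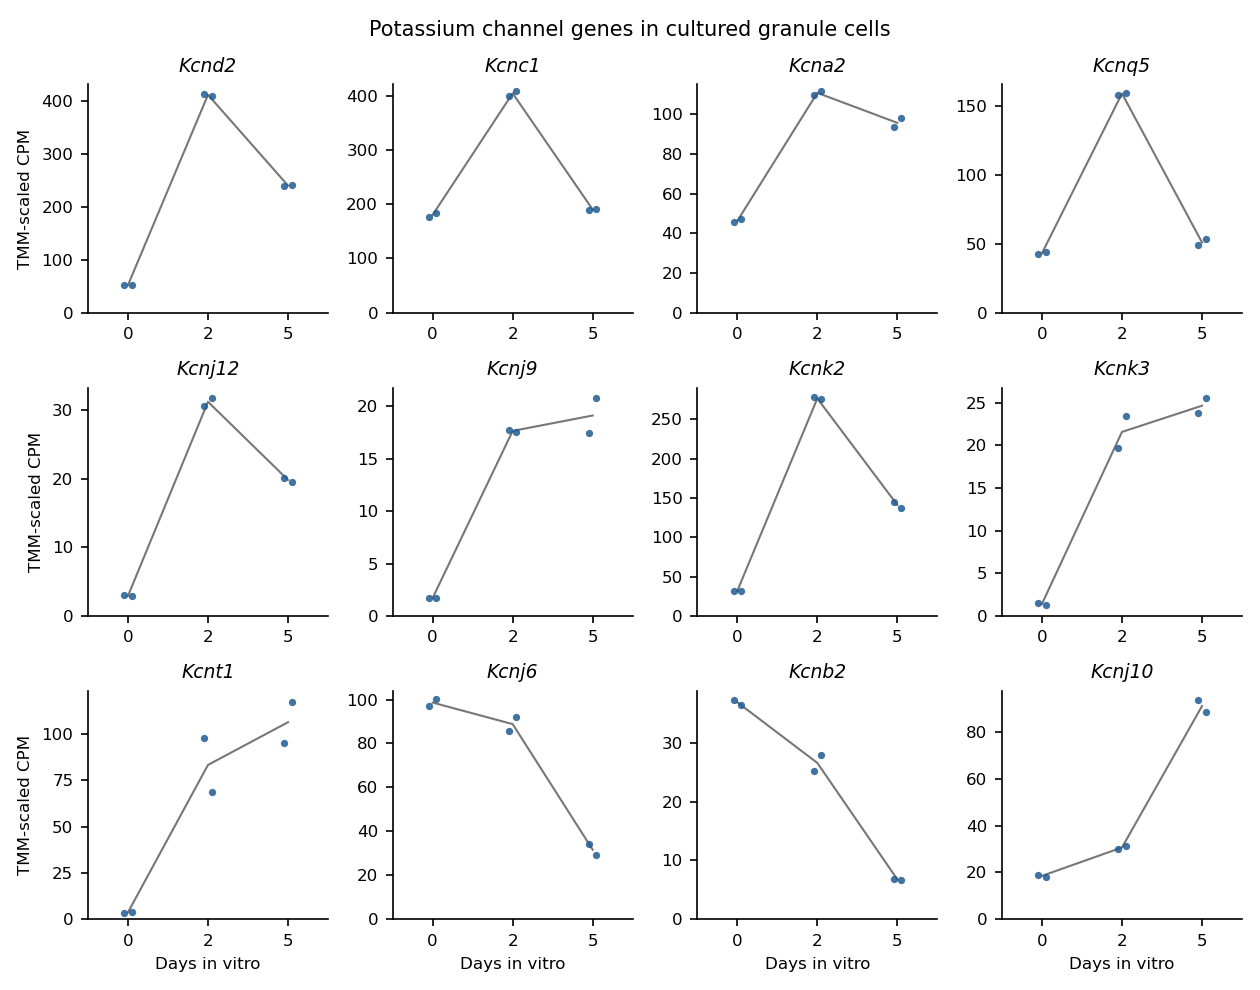
TMM-scaled CPM (vertical axes, from 0, each with its own range) of 12 members in cultured granule cells at 0, 2 and 5 days in vitro (horizontal axes), 2 libraries a time, DIV2 and DIV5 with DMSO. Points are libraries and lines join the means. Kcnd2, Kcnc1, Kcnq5, Kcnj12 and Kcnk2 peak at 2 days, Kcnj9, Kcnk3 and Kcnt1 stay high at 5 days, Kcnj6 and Kcnb2 drop and Kcnj10 climbs.

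The culture and the animal shared no library, and 65 members were tested in both. Of the 30 of these that were higher at P21 than at P7, 24 were also higher at DIV2 than at DIV0, 80.0% of the first list and 66.7% of the 36 in the second. Over all genes the shares were 52.6% and 54.1%. Of the 21 that were lower at P21, 8 were also lower and 9 were higher at DIV2, 38.1% and 42.9%, against 53.7% and 24.9% over all genes; the 9 include Kcnk2, Kcnk9, Kcnq5 and Kcna6. At DIV5 over DIV0, 17 of the 30 were higher and 4 lower, 56.7% and 13.3%, against 56.1% and 22.7% over all genes. Of the 43 higher in Neurod1 than in Math1 TRAP, 32 were higher at DIV2, 74.4% of the first list and 88.9% of the second, against 62.8% and 59.7% over all genes.

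Some members that were abundant in the animal at P21 were at low levels in the dish. Kcnip4, at 91.1 to 151 CPM in TRAP at P21, was at 2.34 and 2.07 CPM at DIV5. Kcnip1, at 34.9 to 57.6 CPM at P21, was at 0.585 and 0.838 CPM at DIV5. Kcng4 did not pass the filter in culture and was at 0.234 and 0.0883 CPM at DIV5. Kcnj12, at 421 to 486 CPM at P21, was at 20.1 and 19.5 CPM at DIV5. These levels come from separate fits and were not tested against each other. They also differ in RNA fraction, as the culture libraries were not made from ribosome pull-downs. Age differs as well, as the cultured cells were isolated at P6 to P7 and taken at DIV5. The part of either in these gaps was not tested.

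With UNC1999, which blocks the enzymes that place the repressive H3K27 methylation of Polycomb complex PRC2, 16 of 77 tested members were higher than with DMSO at DIV5, beside 6.36% of all genes, and 12 were lower, beside 5.53%. As shares of the members these are 20.8% and 15.6%, against that background. The median log2 fold change of the members was 0.03 and that of all genes was within 0.01 of 0. By class, 10 Kv genes were higher and 6 lower of 32, 2 inward rectifiers higher and 1 lower of 13, 2 K2P genes higher and 0 lower of 9, 1 calcium-activated gene higher and 2 lower of 10, and 1 auxiliary gene higher and 3 lower of 13. Among the partners 8 were higher and 1 lower of 25. Each group has 2 libraries, and DESeq2 called 12 members higher and 5 lower. Granule neuron markers summed to medians of 5698 CPM with UNC1999 and 3906 CPM with DMSO, and vascular and meningeal markers to 6648 CPM with UNC1999 and 8408 CPM with DMSO; 1 of 10 of these and 6 of 10 astrocyte markers were called lower and 0 higher. Their part in the member changes was not tested.

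Members of the Kv1 and Kv3 subfamilies moved in both directions, with Kcna1, Kcna2, Kcnc1 and Kcnc4 higher and Kcna4, Kcna6 and Kcnc2 lower. Kcnc4 stood at 21.5 and 24.9 CPM with UNC1999, against 10.2 and 11.03 CPM with DMSO, a log2 fold change of 1.13 ± 0.11 (SE, adjusted p = 3.11e-05). Kcna2 stood at 149 and 170.0 CPM with UNC1999, against 93.5 and 97.9 CPM with DMSO (log2 fold change 0.74 ± 0.065, adjusted p = 1.22e-05). For each gene both treated libraries lay above both DMSO libraries. Kcnc1 (log2 fold change 0.34 ± 0.051, adjusted p = 0.000721) and Kcna1 (log2 fold change 0.49 ± 0.053, adjusted p = 6.47e-05) were higher by smaller amounts.

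The 2 K2P and 2 inward rectifier genes that were higher were Kcnk3, Kcnk9, Kcnj12 and Kcnj6; most genes of both classes were not called. Kcnk3 stood at 44.2 and 47.9 CPM with UNC1999, against 23.8 and 25.6 CPM with DMSO (log2 fold change 0.90 ± 0.093, adjusted p = 4.27e-05). Kcnj12 stood at 35.7 and 33.3 CPM with UNC1999, against 20.1 and 19.5 CPM with DMSO (log2 fold change 0.80 ± 0.082, adjusted p = 4.06e-05). Kcnk9 was higher by 0.42 ± 0.084 (SE, adjusted p = 0.00552). Among the GIRK genes only Kcnj6 was called. It stood at 48.0 and 45.8 CPM with UNC1999, against 34.1 and 29.2 CPM with DMSO (log2 fold change 0.57 ± 0.077, adjusted p = 0.000331). Kcnj3 (log2 fold change 0.03 ± 0.079, adjusted p = 0.849) and Kcnj9 (log2 fold change 0.09 ± 0.10, adjusted p = 0.637) were not called, and the difference between the 3 genes was not tested. The Kv2 gene Kcnb2 (log2 fold change 0.64 ± 0.12, adjusted p = 0.00297) was also higher.

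Lower members were Kv and auxiliary genes for the most part. Kcna6 stood at 30.2 and 27.2 CPM with UNC1999, against 41.1 and 41.8 CPM with DMSO (log2 fold change -0.54 ± 0.086, adjusted p = 0.0012). Kcnip3 stood at 69.6 and 69.1 CPM with UNC1999, against 85.9 and 89.0 CPM with DMSO (log2 fold change -0.34 ± 0.055, adjusted p = 0.00142). Kcne4, a low-abundance auxiliary subunit, stood at 0.962 and 0.741 CPM with UNC1999, against 1.76 and 2.29 CPM with DMSO (log2 fold change -1.30 ± 0.26, adjusted p = 0.00599). Kcnj10 had a log2 fold change of -0.25 ± 0.069 (SE, adjusted p = 0.0323), beside an astrocyte marker sum of 2225 CPM with UNC1999 and 2574 CPM with DMSO, medians over 2 libraries each. The number of lower calls was 2 without UNC1999 library 2, 4 without DMSO library 2 and 7 without either of the other 2 libraries.

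Members higher with UNC1999 held both directions of the age comparison, with which it shares no library. All 16 members higher with UNC1999 were tested in the animal, where 10 were higher and 5 lower at P21 than at P7. That is 62.5% and 31.2% of the 16, against 53.9% and 33.0% of all genes higher with UNC1999. Among the 10 were Kcna1, Kcna2, Kcnab2, Kcnc1, Kcnc4, Kcnh1, Kcnj12, Kcnk3 and Kcnmb4, and the 5 were Kcnb2, Kcnj6, Kcnk9, Kcnq3 and Kcnq5. Of the 10 lower members tested in the animal, 3 were higher and 5 lower at P21, close to the 26.2% and 53.3% of all genes lower with UNC1999.

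In the Ezh1 cultures, Ezh1 RNA stood at 35.4, 36.6, 35.1 and 33.3 CPM in cKO libraries, against 42.7, 43.3, 49.3, 47.0 and 39.4 CPM in wt libraries. No cKO library reached the lowest wt library, but the gene was not called (edgeR, adjusted p = 1.0), and the files do not show which exons the reads cover. With edgeR, 0 of 65 tested members were called in either direction, beside 0% of 14461 genes. At an unadjusted p under 0.05 there were 2 members, and DESeq2 called 0 with 3 at that level.

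The 2 members were Kcnn4 and Kcnt1. Kcnn4, a calcium-activated channel known from immune and red blood cells, stood at 0.513, 0.335, 0.352 and 0.476 CPM in cKO libraries, against 1.52, 0.983, 0.744, 0.795 and 1.44 CPM in wt libraries, a log2 fold change of -1.37 ± 0.34 (edgeR, adjusted p = 1.0). Its cKO libraries all lay below its wt libraries, at levels near 1 CPM. The share of all genes with such a separation was not counted. Kcnt1 stood at 55.2, 61.6, 68.6 and 57.5 CPM in cKO libraries, against 40.1, 50.7, 62.6, 45.7 and 39.8 CPM in wt libraries, with overlap (log2 fold change 0.35 ± 0.15, edgeR adjusted p = 1.0).

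Libraries numbered 1 and 2 stood apart from those numbered 3 to 5 in both genotypes, and several members carried that split. Kcnmb4 stood at 53.8, 52.5, 16.2 and 20.1 CPM in the cKO libraries and 79.9, 55.4, 17.3, 18.9 and 13.8 CPM in the wt libraries, in order of their numbers. Kcnj6 stood at 14.0, 14.6, 52.2 and 48.8 CPM in the cKO libraries and 6.65, 12.04, 52.3, 52.4 and 42.3 CPM in the wt libraries. Kcnmb4 was high and Kcnj6 low in libraries 1 and 2, in cKO and wt alike. With the number as a block in the fit, 0 members and 0 genes were called and 9 members had an unadjusted p under 0.05, Kcnj10 with a log2 fold change of 0.56 ± 0.13 (SE, edgeR adjusted p = 0.493) among them. Astrocyte markers summed to 5813 to 13610 CPM in cKO libraries and 3046 to 13480 CPM in wt libraries. Within libraries 1 and 2 alone, and within 3 to 5 alone, 0 members were called.

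The inhibitor and genotype effects shared no library, and their difference was tested directly. For 0 of 75 members was it called, beside 0% of 15453 genes; 4 members had an unadjusted p under 0.05, and DESeq2 called 0 members. For Kcnk3 the UNC1999 effect exceeded the cKO effect by 1.04 ± 0.23 on the log2 scale (SE, edgeR adjusted p = 1.0), with effects of 0.90 for UNC1999 and -0.13 for cKO and with the gene at 36.1, 43.2, 40.3 and 42.2 CPM in cKO libraries and 55.8, 37.9, 45.8, 45.7 and 35.7 CPM in wt libraries. The median SE of a member was 0.34 in the genotype comparison and 0.18 in the inhibitor comparison, so the genotype comparison was the less precise of the pair. For the difference between the effects the median SE was 0.65, so the absence of calls does not show that the effects are alike.

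**Figure D5:**
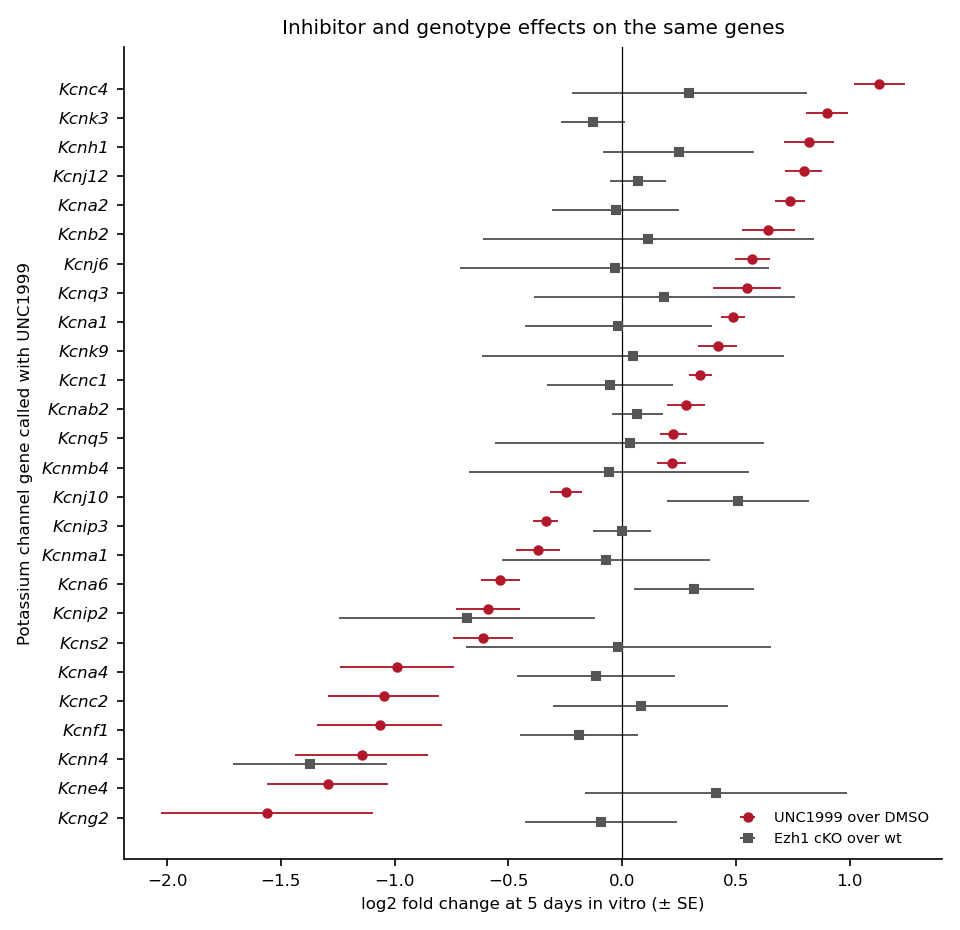
Log2 fold change at DIV5 (horizontal axis, bars are SE) of 26 of the 28 members called with UNC1999 (vertical axis), for UNC1999 over DMSO (red circles) and for Ezh1 cKO over wt (grey squares). The genotype values of 0 members were called, and they run from -1.37 for Kcnn4 to 0.51 for Kcnj10 with bars that are mostly wider than those of the inhibitor.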

How the data were processed

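The authors deposited a table of whole-number estimated counts, with no normalization, for 39 poly(A) RNA libraries. Salmon 0.8.2 and mm10 are named in the submitters' processing notes; the annotation and the step from transcripts to genes are not given in the sources used here. Members and lists were chosen with earlier results of these data known.

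Groups follow the labels. TRAP groups were fitted together, culture groups together, Neurod1 TRAP and inputs with age as a factor, and the Ezh1 cultures alone, without the 1041 genes blank there; the difference of the inhibitor and genotype effects comes from a fit of both kinds of culture. Models were fitted in R 4.3.3 by edgeR 4.0.16, with filterByExpr (minimum count 10, minimum total 15), TMM and robust quasi-likelihood tests, checked on simulated data. Total counts of 12.1 M to 38.5 M per library set the precision of low members. Exonic length for CPM per kilobase is the union of exons in GENCODE M21. Promoters are RefSeq windows of 300 bases, the first listed for each gene. For some members, Kcnj3 and Kcna2 among them, that window lies inside the gene.

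Named members are 25 from a fixed list, in each class up to 3 higher and 2 lower at P21 over P7, and in other comparisons up to 3 each way, by adjusted p with a mean of at least 1 CPM. Kcnj5, Kcnj11, Kcnc2, Kcna4, Kcnn4 and genes printed only in lists of shared calls were named after their values were seen. A few genes of these lists are counted but not reported here. Same-numbered Ezh1 libraries deviated together (correlations of 0.847 to 0.922 over 4 pairs), so the block is reported beside that result. Alternatives were other scaling, DESeq2 1.42.0, other filters, narrower fits, the replicate block and leaving out each library.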

Additional observations from a re-analysis of the deposited data

Results flagged for a closer look

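Of 207 groups of values of 41 named members, 9 held 1 library set apart from the rest of its group; chance alone gives about 1 in 20. In Math1 TRAP, Kcnd3 stood at 69.8 CPM in library 3 against 64.3 to 64.8 CPM in the others, and Kcnk3 at 2.78 CPM in library 1 against 0.731 to 1.08 CPM. In Neurod1 TRAP at P7, library 4 was low for 2 K2P genes, with Kcnk12 at 8.44 CPM against 12.01 to 13.3 CPM and Kcnk3 at 16.5 CPM against 26.2 to 28.7 CPM in the others. At P12, Kcnma1 stood at 9.18 CPM in library 5 against 6.61 to 7.26 CPM and Kcnq5 at 26.0 CPM in the same library against 35.1 to 38.2 CPM. At P21, Kcnk3 stood at 336 CPM in library 1 against 382 to 398 CPM. In the Ezh1 wt cultures, library 2 was high for Kcna6 at 85.4 CPM against 42.6 to 50.3 CPM and for Kcnj16 at 8.17 CPM against 3.40 to 4.70 CPM. None of these gaps reaches the distance between P7 and P21 for Kcnk3, Kcnk12 or Kcnq5.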

How the results depend on the processing

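Scaling by library size alone shifted the median log2 fold change of all genes to -0.22 for P21 over P7, -0.15 for P21 over P12, -0.46 for TRAP over input and 0.15 for DIV5 over DIV0. The share of called genes that were higher became 35.7% for P21 over P12 against 49.8% with TMM, 25.6% for TRAP over input against 47.1%, and 57.4% for DIV5 over DIV2 against 46.6%. Under this scaling Kcnj3 at P21 over P7 was -0.11, Kcnk13 was -0.015 and Kcnj9 in TRAP over input was -0.065, each opposite in sign to the main value, and 9 members were higher in TRAP than in input. With age left out, 5 members were higher and 23 lower in TRAP, and Kcnip4, which was called with age in the fit, was 0.014. Leaving out each library gave Kcnj8 at P21 over P7 values of -0.023 (without P21 library 2) to 0.54, and Kcnj10 in Neurod1 over Math1 was 0.11 without Math1 libraries 3 and 4, an alternative added after seeing the data. With UNC1999, DESeq2 called 5 members lower, and leaving out each library gave 2 to 7 lower and 12 to 13 higher. The causes were not tested. Other counts of called members stayed within 1.5 times of those reported. Same-numbered TRAP libraries showed no steady pairing (correlations of -0.479 to 0.379), with the own number highest in 9 of 27 pairs. In culture (-0.428 to 0.22) the deviations of the 2 libraries of a group mirror each other, so these values cannot show whether numbers pair. With the replicate block the calls were 33 higher and 23 lower for P21 over P7 and 48 and 10 for Neurod1 over Math1. In culture they were 36 and 20 for DIV2 over DIV0 and 14 and 11 with UNC1999. With 2 libraries a group in culture and 1 input at each age, those spreads rest on few libraries, and members near 1 CPM rest on few reads.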
